A study of Homo sapiens with 10 samples.

Results

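Neural progenitor cells (NPC) and pre-neural crest cells (NCSC), both derived from WA09 human embryonic stem cells (hESC), were set against each other gene by gene. WA09 is an established human embryonic stem cell line. The quantity was a difference of changes: the change of log2(FPKM + 1) in NPC against hESC minus the change in NCSC against hESC, each taken within its own deposited table. FPKM counts sequenced fragments per transcript length and library size, so levels are per length. A gene entered where its symbol was in both tables on chromosomes 1 to 22 or X and at least 1 of the 4 values was 1 FPKM or more, which held for 13789 of 21953 symbols. Where a symbol had several loci, the locus with the highest mean FPKM was used.

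The NPC medium, used for 6 days, held no added FGF. It contained IGF-I (200 ng/mL) and heregulin (10 ng/mL), blocked activin receptors with SB431542 and blocked BMP receptors with LDN at 500 nM. The NCSC medium, also used for 6 days, contained FGF (8 ng/mL) beside the same IGF-I and heregulin, and combined SB431542 with BIO, which inhibits GSK3. hESC were kept 4 days in the same IGF-I, heregulin and FGF (8 ng/mL) with activin A (10 ng/mL) and neither inhibitor type. The starting density per square centimetre was 90000 cells for NPC and NCSC and 50000 for hESC. FGF, LDN and BIO all differed between the 2 derivative cultures, so their parts cannot be told apart. The whole series held 10 poly-A libraries of 5 cell types, 2 per type, from 1 cell line.

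The authors deposited 1 pooled value per cell type and table, so the spread between libraries cannot be given, depth is unknown, and no test of NPC against NCSC was made. A gene is called higher or lower in NPC below where the difference was at least 2 on the log2 scale, as a rule of size. Rose and fell are used only where the authors' q-value against hESC was below 0.05 in the table of that derivative. In bulk RNA, fewer cells of a type and less RNA per cell cannot be told apart.

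In the vertebrate neural plate, position along the head-to-tail axis is set early. Inhibition of WNT and BMP signals favours forebrain and eye fates, while WNT, FGF and retinoic acid move tissue toward hindbrain and spinal cord. The neural crest arises at the border of the plate, and inhibition of GSK3 mimics a WNT signal by stabilising beta-catenin. HOX genes mark the hindbrain and levels behind it and are silent in the forebrain.

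The 4 genes taken as markers stood in the direction of the labels. SIX3 and PAX6 reached the minimum of 1 FPKM only in NPC, and HOXB2 only in NCSC. For these genes the filter fixed which derivative stood higher, so they give the labels no separate support. SIX3, a homeobox factor of the anterior forebrain and eye (chromosome 2, 45169036 to 45173216, hg19), stood at 54.9 FPKM in NPC and 0.0415 in NCSC, against 0.196 and 0.185 in the hESC columns of the NPC and NCSC tables. PAX6, a paired-box factor of neural tube and eye (chromosome 11, 31531296 to 31908587, hg19), stood at 38.0 FPKM in NPC and 0.348 in NCSC. Both rose in NPC (q = 0.000323 each in the authors' deposited table) and had no test in NCSC, where the deposited statistic is 0 and the p-value 1. PAX3, a factor of the dorsal neural tube and crest border (chromosome 2, 223064605 to 223169936, hg19), stood at 1.87 FPKM in NPC and 18.6 in NCSC, against 0.0737 and 0.0169 in hESC, and rose in both. HOXB2, a hindbrain HOX gene (chromosome 17, 46620018 to 46622393, hg19), stood at 0.0278 FPKM in NPC and 20.3 in NCSC, against 0.146 and 0.139 in hESC, and rose in NCSC (q = 0.0125 in the authors' deposited table). Among crest genes, some were low in both derivatives and others, such as SNAI2, SOX9 and NGFR, rose in both. FOXD3 stood at 0.0140 FPKM in NPC and was listed at 0 in NCSC, against 11.3 and 10.7 in hESC. SOX10 stood at 1.38 FPKM in NPC and 2.91 in NCSC, against 2.66 and 2.57 in hESC. TFAP2A and TFAP2B, which mark the border and early crest, were below 1 FPKM in both derivatives.

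The promoters of SP5, CDX2 and HOXB1 are shown, chosen after their values were seen, because these posterior genes were lower in NPC and their windows hold the core site of the TCF and LEF factors, through which beta-catenin acts. Each line gives the 250 bases before the gene's start, read along the gene's strand from RefSeq (GRCh38.p14). Capitals mark CTTTGA on either strand. The windows lie at chr2:170715087-170715336 (plus strand) for SP5, chr13:27969316-27969565 (minus strand) for CDX2 and chr17:48531012-48531261 (minus strand) for HOXB1.
SP5: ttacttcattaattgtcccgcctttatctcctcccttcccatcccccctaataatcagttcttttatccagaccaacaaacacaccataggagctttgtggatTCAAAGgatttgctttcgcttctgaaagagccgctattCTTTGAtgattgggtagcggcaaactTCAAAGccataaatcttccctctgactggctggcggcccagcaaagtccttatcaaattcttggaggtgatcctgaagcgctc
CDX2: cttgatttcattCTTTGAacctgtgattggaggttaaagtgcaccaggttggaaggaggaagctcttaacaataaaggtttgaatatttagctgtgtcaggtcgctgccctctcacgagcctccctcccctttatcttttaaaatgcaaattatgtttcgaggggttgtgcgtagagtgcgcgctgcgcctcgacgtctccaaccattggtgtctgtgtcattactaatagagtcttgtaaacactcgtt
HOXB1: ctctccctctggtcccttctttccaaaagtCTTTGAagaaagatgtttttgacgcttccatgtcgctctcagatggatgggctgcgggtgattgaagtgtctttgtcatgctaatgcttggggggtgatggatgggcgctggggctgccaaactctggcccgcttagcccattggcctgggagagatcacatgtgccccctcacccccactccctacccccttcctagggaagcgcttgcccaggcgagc
SP5 held 3 matches, 1 along the gene's strand and 2 on the other, CDX2 held 1 and HOXB1 held 1. Of all 35116 RefSeq windows of this length, 11.2% held the motif. The list of WNT targets had windows for 11 genes, 2 of which (18.2%) held it, beside 13.5% of all genes with a window. The windows of WNT8A and HOXA2, lower in NPC too, did not hold these letters. Among genes higher in NPC, windows of SP8, DBX1, NR2F1 and NR2F2 held them, and those of OTX2, RAX and PAX6 did not. The matches describe letters only, and binding was not measured.

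Of the 13789 genes, 175 (1.27%) were higher and 242 (1.76%) lower in NPC. Just past the limit lay SOX21 (2.02) and CHRD (-2.02), and just inside it L1TD1 (1.998) and NOTUM (-1.996). The median difference over all genes was -0.05, and 63.5% of genes lay within 0.5 of 0. Of the 417 genes past 2, 314 had the authors' q below 0.05 in at least 1 table. The authors' statistics imply an error for 303 of the 417 (the log2 ratio divided by the statistic in each table, the 2 combined), and for 257 of them the difference of the log2 ratios was at least 2 times that error. Its median was 0.65 over genes at 10 FPKM or more. The tables' hESC columns stood apart by a median ratio of 1.07 (NPC table over NCSC table), and for 48 of the 417 genes they differed by more than 0.5 on the log2 scale, against 2.99% of all genes. Such genes, and small RNA entries (47 of the 417) filled much of both extremes. Of the 15 genes with the highest difference 5 were small RNAs and 4 had such unequal hESC values, and of the 15 with the lowest 9 and 2.

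**Figure D1:**
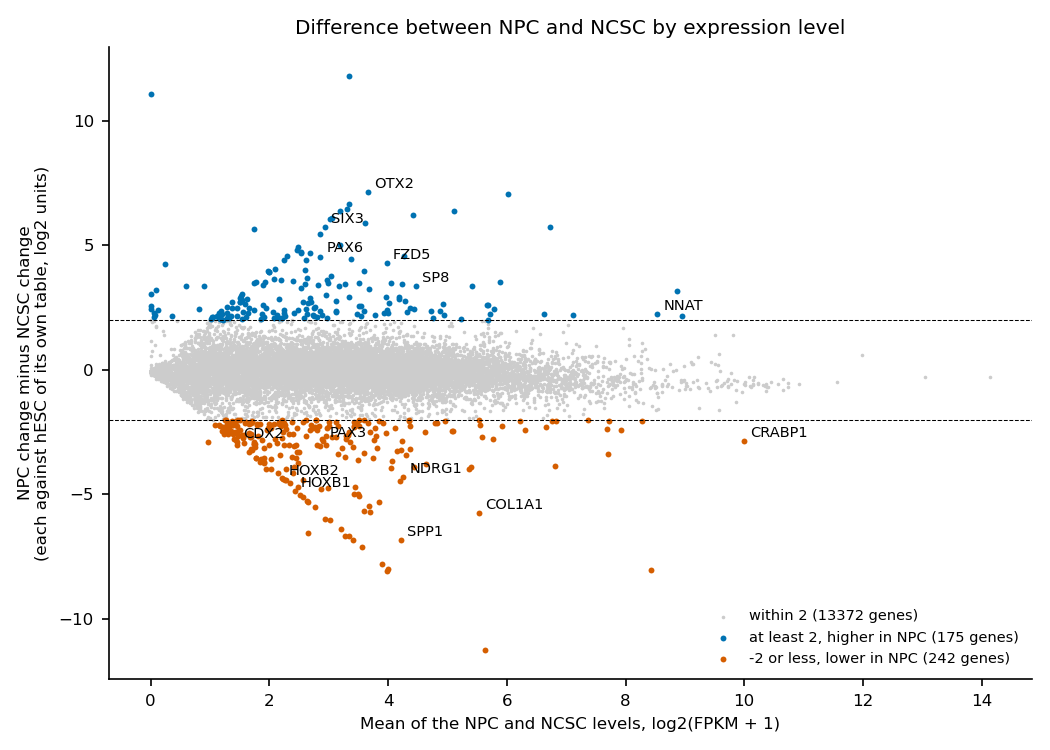
Difference between the NPC and NCSC changes (y axis, log2 units) by the mean of the NPC and NCSC levels (x axis, log2(FPKM + 1)), 1 point per gene, 13789 genes. The 175 genes at 2 or more (blue) include OTX2 and SIX3, and the 242 at -2 or less (orange) include SPP1, COL1A1 and HOXB1.

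Forebrain and eye field factors were the list with the largest share of higher genes. Of 26 genes 15 were measured, 12 of them higher in NPC and none lower, with a median difference of 3.93, beside 1.27% and 1.76% of all genes. The same shares of all genes stand beside the higher and lower counts of every list below. Of the 15, 12 passed the minimum of 1 FPKM only through NPC, so for these 12 the filter fixed which derivative stood higher. The list's share of higher genes was therefore set in part by the filter. In every list below, the filter likewise fixed which derivative stood higher for any gene that passed only through 1 derivative. Another 9 were below 1 FPKM everywhere, 1 lay in a merged locus and 1 was not in both tables. The authors' deposited table called 12 of the 15 risen in NPC and none fallen, beside 12.3% and 25.8% of all genes tested. The same filter favoured a call of risen and left little room for one of fallen, so these shares are not like for like. In NCSC 1 rose and 2 fell, beside 10.4% and 20.5%.

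OTX2, the head-organising homeobox factor of forebrain and midbrain, stood at 153 FPKM in NPC and 0.0376 in NCSC, against 23.8 and 22.5 in hESC. It rose in NPC and fell in NCSC, and its difference of 7.14 was the largest among the list's genes. RAX, the eye field factor, stood at 30.1 FPKM in NPC and 0.00572 in NCSC, and LHX2, a LIM factor of eye and cortex, at 29.0 in NPC and 0.122 in NCSC. LHX5, another LIM factor of the forebrain, stood at 29.3 FPKM in NPC and 0.110 in NCSC. The telencephalic factors were lower in level but also set apart: FEZF2 stood at 14.7 FPKM in NPC and 0.0201 in NCSC, EMX2 at 7.41 in NPC and 0.00691 in NCSC, and EMX1 at 3.94 in NPC and 0.00843 in NCSC. SP8, a zinc finger factor of the anterior neural ridge, was shared in part: it rose in both, to 70.9 FPKM in NPC and 5.79 in NCSC, against 0.821 and 0.765 in hESC. The 3 members between the limits were HESX1 (5.44 FPKM in NPC and 1.05 in NCSC), SIX6 (1.85 in NPC and a listed 0 in NCSC) and RORB (1.07 in NPC and 0.461 in NCSC). LHX2 and EMX2 did not pass the authors' test in NPC.

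FEZF1 and OTX1 could not be separated from neighbours. The locus that the authors merged as CADPS2 and FEZF1 stood at 189 FPKM in NPC and 1.39 in NCSC, against 7.30 and 6.83 in hESC. OTX1 was merged with EHBP1 in the NPC table, at 38.4 FPKM against 15.2 in hESC, and stood alone at 0.00711 FPKM in NCSC.

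HOX genes ran the other way. Of 39 genes 8 were measured, 6 of them lower in NPC and none higher, with a median difference of -2.80. All 8 passed the minimum only through NCSC, so their direction was fixed by the filter. Another 24 were below 1 FPKM in all columns (at most 0.693), 5 lay in merged loci and 2 were not in both tables. Of the 8, 5 rose in NCSC by the authors' deposited table, beside 10.4% of all genes tested, and the filter favoured such calls. None passed in NPC, where no measured HOX gene was above 0.0732 FPKM.

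In NCSC the highest HOX levels were those of HOXB genes. Along chromosome 17 HOXB1 stood at 0.0397 FPKM in NPC and 26.9 in NCSC, against 0.632 and 0.480 in hESC. Next to it, HOXB2 stood at 20.3 FPKM in NCSC, and the locus merged there as HOXB3 and HOXB4 at 15.9. In NPC these were 2 loci, HOXB3 at 0.0351 FPKM and HOXB4 at a listed 0. HOXB5 and HOXB6 stood at 0.621 and 0.397 FPKM in NCSC and were listed at 0 in NPC. The antisense gene HOXB-AS3, named after its value was seen, stood at 0.0471 FPKM in NPC and 21.3 in NCSC, and it overlaps that interval, so with no strand stated its reads and those of HOXB5 and HOXB6 cannot be told apart. Farther along, HOXB7 stood at 0.0157 FPKM in NPC and 2.45 in NCSC, HOXB8 at 0.0142 in NPC and 6.20 in NCSC, and HOXB9 at 0.0475 in NPC and 21.5 in NCSC. On chromosome 7 HOXA2 stood at 0.0732 FPKM in NPC and 4.80 in NCSC and HOXA3 at a listed 0 in NPC and 1.66 in NCSC. HOXA4 was at 0.474 FPKM in NCSC and HOXA5 at 0.0798. The merged locus of HOXC4, HOXC5 and HOXC6 was at 0.0259 FPKM in NPC and 2.05 in NCSC. HOXB8 and HOXA3 did not pass the authors' test in NCSC.

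Of 23 midbrain and hindbrain factors 9 were measured, with 2 higher and 3 lower in NPC. The minimum of 1 FPKM was passed by 3 of the 9 only through NPC and by 2 only through NCSC, GBX2 among them. For these the filter fixed which derivative stood higher. FGF8, the signal of the anterior neural ridge and the midbrain-hindbrain boundary, stood at 48.4 FPKM in NPC and 1.16 in NCSC, against 2.79 and 2.58 in hESC, and rose in NPC. MAB21L2, a gene of eye and midbrain development, was the other higher one, at 6.74 FPKM in NPC and 0.0387 in NCSC. GBX2, which opposes OTX2 behind the boundary, stood at 0.412 FPKM in NPC and 13.6 in NCSC, against 0.949 and 0.897 in hESC, and rose in NCSC. EGR2, a factor of hindbrain rhombomeres and also an ERK target, stood at 3.12 FPKM in NPC and 23.6 in NCSC, against 0.534 and 0.502 in hESC, and rose in both. FGF17 stood at 0.217 FPKM in NPC and 8.24 in NCSC, against 5.38 and 5.05 in hESC, and fell in NPC. PAX8 (0.274 FPKM in NPC and 1.94 in NCSC), BARHL1 (1.82 in NPC and 0.0524 in NCSC) and LMX1A (1.59 in NPC and 0 in NCSC) lay between the limits.

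Of 23 posterior neural and axial factors 16 were measured, 5 of them entering only through NCSC. Of the 16, 4 were lower in NPC and none higher, and the median was -0.27. SP5, a zinc finger target of WNT, stood at 0.991 FPKM in NPC and 82.0 in NCSC, against 0.979 and 0.885 in hESC. It rose in NCSC and did not pass in NPC. WNT8A, a ligand of the caudal embryo, stood at 0.197 FPKM in NPC and 8.55 in NCSC, against 0.527 and 0.522 in hESC, and rose in NCSC. CDX2, a caudal homeobox factor, stood at 0.00759 FPKM in NPC and 6.51 in NCSC and did not pass. FST, follistatin, which binds activin, stood at 14.5 FPKM in NPC and 71.97 in NCSC, against 10.6 and 8.81 in hESC, and rose in NCSC. RFX4 (0.4005 FPKM in NPC and 4.196 in NCSC) and NKX1-2 (a listed 0 in NPC and 2.76 in NCSC) lay just inside the limit. Among the other genes of the list, CDX4 stood at a listed 0 in NPC and 0.0238 FPKM in NCSC, CYP26A1 at 0.133 in NPC and 0.422 in NCSC, TBX6 at 2.54 in NPC and 1.66 in NCSC, and NR6A1 at 99.5 in NPC and 102 in NCSC. WNT5B leaned the other way, at 33.2 FPKM in NPC and 7.68 in NCSC, and rose in both.

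**Figure D2:**
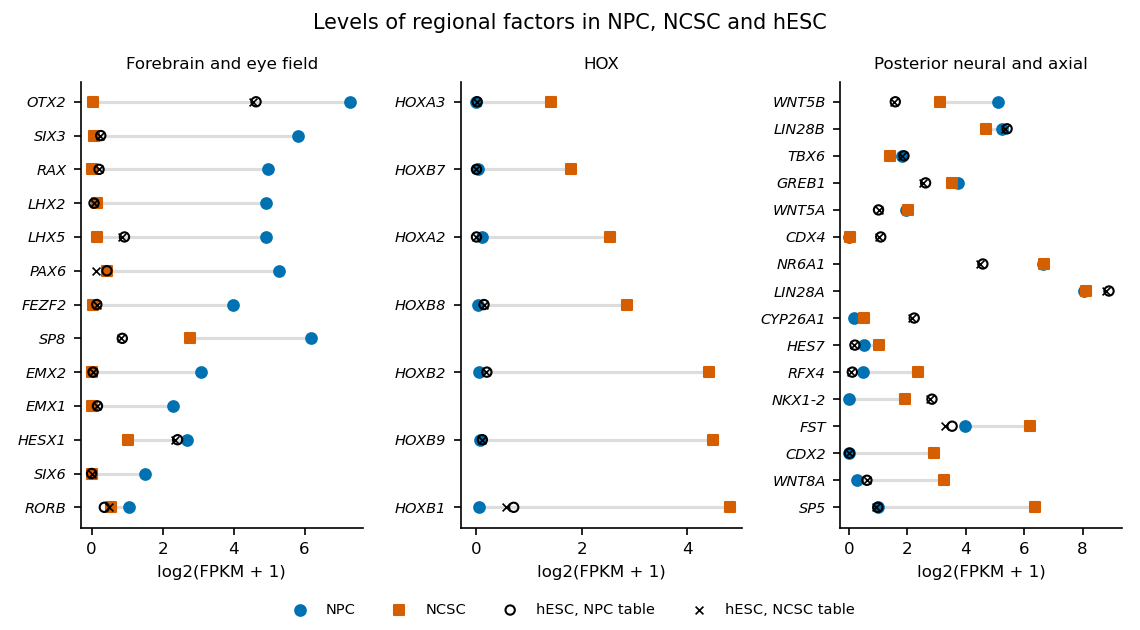
Levels (x axis, log2(FPKM + 1)) of measured forebrain, HOX and posterior genes, 1 row per gene, in NPC (blue circles), NCSC (orange squares) and the hESC column of each table (open circles and crosses), 1 pooled value each. Forebrain genes stand higher in NPC than in NCSC, where SP8 (5.79 FPKM) and HESX1 (1.05 FPKM) have the highest levels of those shown, HOX genes stand at or near 0 in NPC, and most posterior genes other than SP5, WNT8A, CDX2 and FST lie close together.

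Of 31 neural crest and border factors 22 were measured, 1 higher and 3 lower in NPC, with a median of -0.79. The minimum of 1 FPKM was passed by 3 of the 22 only through NCSC and by none only through NPC. For these 3 the filter fixed which derivative stood higher. By the authors' deposited table, 7 rose and 7 fell in NPC, beside 12.3% and 25.8% of all genes tested, and 11 rose and 6 fell in NCSC, beside 10.4% and 20.5%. For PAX3 the implied error of 5.24 is nearly as large as the difference of its log2 ratios, -5.44. The other lower genes were SOX8 and TFAP2C. SOX8, a crest SOX factor, stood at 0.923 FPKM in NPC and 7.25 in NCSC, against 12.2 and 11.3 in hESC. TFAP2C stood at 0.288 FPKM in NPC and 4.22 in NCSC, against 18.4 and 17.8 in hESC, and fell in both. These 2 genes were therefore below hESC in both derivatives, and lower in NPC. SNAI2, the crest EMT factor, rose in both, to 3.78 FPKM in NPC and 11.7 in NCSC, against 0.288 and 0.286 in hESC. SNAI1 stood at 5.49 FPKM in NPC and 10.4 in NCSC and rose in NCSC. MSX1 stood at 0.564 FPKM in NPC and 1.46 in NCSC, MSX2 at 0.0892 in NPC and 2.28 in NCSC, and ETS1 at 0.337 in NPC and 3.31 in NCSC. SOX9, a crest and glial factor, rose in both, to 23.4 FPKM in NPC and 16.1 in NCSC. NGFR, the low-affinity neurotrophin receptor used to sort crest cells, also rose in both, to 13.1 FPKM in NPC and 12.9 in NCSC. The 1 higher gene was SOX5, at 15.6 FPKM in NPC and 2.66 in NCSC, against 0.333 and 0.240 in hESC. ZIC2, of the ZIC family that acts at the border, rose in both, to 90.3 FPKM in NPC and 123 in NCSC, and ZIC5 too, to 16.8 in NPC and 16.0 in NCSC.

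Of 26 pan-neural progenitor genes 25 were measured, with 5 higher in NPC, none lower and a median of 1.03. Of the 25, 19 rose and 1 fell in NPC by the authors' deposited table, beside 12.3% and 25.8% of all genes tested. In NCSC 13 rose and 2 fell, beside 10.4% and 20.5%. HES5, a NOTCH target that keeps progenitors from becoming neurons, stood at 50.9 FPKM in NPC and 0.610 in NCSC, against 0.220 and 0.216 in hESC. The other higher genes were ZNF521 (47.2 FPKM in NPC and 5.91 in NCSC), POU3F1 (50.3 in NPC and 8.17 in NCSC), SOX21 (105 in NPC and 23.7 in NCSC) and LFNG (128 in NPC and 19.4 in NCSC). LFNG's implied error, 3.81, exceeds the difference of its log2 ratios, 2.65. SOX2 stood at 418 FPKM in NPC and 167 in NCSC, against 260 and 244 in hESC, and rose in NPC. SOX1, another neural plate SOX factor, leaned the other way and rose in both, to 5.24 FPKM in NPC and 9.56 in NCSC. VIM, vimentin, stood at 223 FPKM in NPC and 629 in NCSC and rose in both. None of 15 measured proneural and neuronal genes (of 26) was past 2. TUBB3, neuronal tubulin, stood at 37.5 FPKM in NPC and 101 in NCSC, against 137 and 128 in hESC, and MAP2 at 42.1 in NPC and 15.7 in NCSC, against 0.732 and 0.737 in hESC.

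**Figure D3:**
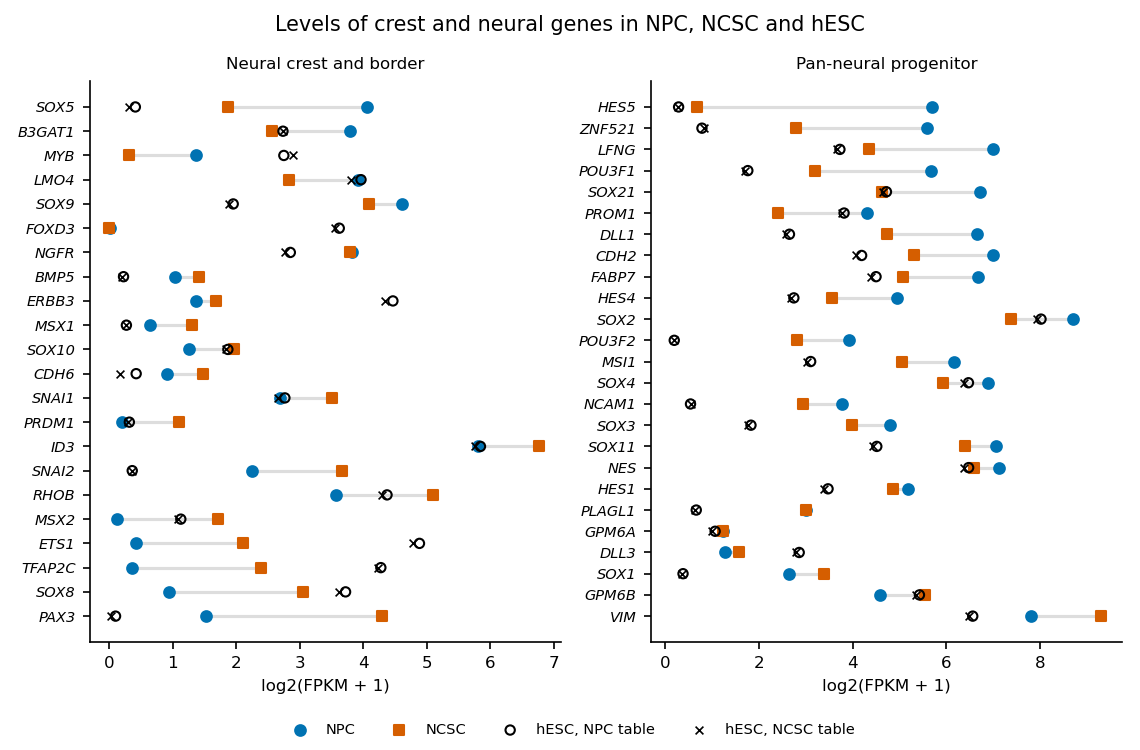
Levels (x axis, log2(FPKM + 1)) of the 22 measured neural crest and border genes and the 25 measured pan-neural genes, with the same symbols as for the regional factors and 1 pooled value per point. PAX3 and SOX5 mark the ends of the crest panel, FOXD3 stands near 0 in NPC and at 0 in NCSC, and HES5 is the widest pair among the neural genes.

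Of 25 WNT targets 19 were measured, 6 lower in NPC and none higher, with a median difference of -0.999. By the authors' deposited table, 3 rose and 11 fell in NPC, beside 12.3% and 25.8% of all genes tested. In NCSC 6 rose and 6 fell, beside 10.4% and 20.5%. Beside SP5, the feedback inhibitor NKD1 stood at 1.83 FPKM in NPC and 27.3 in NCSC, against 1.10 and 1.04 in hESC. TNFRSF19, a receptor of the tumour necrosis factor family, stood at 2.87 FPKM in NPC and 37.1 in NCSC, against 0.654 and 0.613 in hESC. LEF1, a partner of beta-catenin, stood at 5.30 FPKM in NPC and 24.6 in NCSC, against 0.443 and 0.346 in hESC, and rose in both. AXIN2, a scaffold that limits beta-catenin, stood at 6.45 FPKM in NPC and 29.6 in NCSC, against 19.8 and 18.5 in hESC, and ZNRF3, which removes frizzled receptors, at 2.91 in NPC and 15.7 in NCSC, against 6.71 and 6.79 in hESC. AXIN2 and ZNRF3 fell in NPC, and ZNRF3 rose in NCSC. MYC went the other way, at 11.3 FPKM in NPC and 3.39 in NCSC, against 38.4 and 36.3 in hESC, and fell in both. CCND1, cyclin D1, stood at 35.4 FPKM in NPC and 103 in NCSC, against 105 and 97.8 in hESC.

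Among 8 measured WNT ligands WNT7B (3.99 FPKM in NPC and 0.0568 in NCSC) and WNT8B (4.37 in NPC and a listed 0 in NCSC) were higher and rose in NPC, and WNT8A was lower. The minimum of 1 FPKM was passed by 3 of the 8 only through NPC and by 1 only through NCSC, WNT8B and WNT8A among them. For these the filter fixed which derivative stood higher. Of 22 frizzled receptors and secreted antagonists 3 were higher and 1 lower. FZD5, a receptor of the anterior neural plate and eye, stood at 71.5 FPKM in NPC and 2.42 in NCSC, against 34.1 and 31.6 in hESC. FZD8 stood at 13.6 FPKM in NPC and 1.57 in NCSC, against 6.57 and 6.21 in hESC, and like FZD5 it rose in NPC and fell in NCSC. FRZB, a secreted antagonist, stood at 60.8 FPKM in NPC and 10.2 in NCSC, against 2.55 and 2.34 in hESC, and rose in both. FZD10 was the lower one, at 0.207 FPKM in NPC and 8.36 in NCSC, and rose in NCSC. The antagonists SFRP1 (189 FPKM in NPC and 84.0 in NCSC) and SFRP2 (160 in NPC and 46.2 in NCSC) lay between the limits.

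FGF and ERK targets stood on both sides of 0, and FGF had been added to NCSC and hESC but not to NPC. Of 23 genes 22 were measured, with 1 higher, 4 lower and a median of 0.13. SPRY4, a feedback inhibitor of ERK, stood at 0.901 FPKM in NPC and 13.99 in NCSC, against 12.6 and 11.7 in hESC. DUSP5, an ERK phosphatase, stood at 0.254 FPKM in NPC and 4.08 in NCSC, against 4.94 and 4.53 in hESC, and PHLDA1 at 0.461 in NPC and 4.56 in NCSC, against 18.2 and 17.0 in hESC. All 3 fell in NPC. SPRY1 ran against them, at 19.2 FPKM in NPC and 2.75 in NCSC, against 16.7 and 15.4 in hESC, and fell in NCSC. EGR1 stood at 98.1 FPKM in NPC and 32.3 in NCSC and FOS at 68.2 in NPC and 41.1 in NCSC. Among 16 measured FGF ligands and receptors, FGF8 was the 1 higher gene and 4 were lower. FGFR3 stood at 3.79 FPKM in NPC and 57.3 in NCSC, against 40.4 and 38.3 in hESC. The hindbrain ligand FGF3 stood at 0.0319 FPKM in NPC and 12.6 in NCSC, and FGF19 at 0.1004 in NPC and 8.75 in NCSC. FGF3 did not pass the authors' test in NCSC.

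Among BMP targets and antagonists, 2 of 21 measured genes were higher and 3 lower in NPC, and the median of -0.06 was near the -0.05 of all genes; LDN had been added to NPC only. ID1, a direct BMP target, named after its value was seen, stood at 15.2 FPKM in NPC and 13.1 in NCSC, against 265 and 250 in hESC, and fell in both. ID3 stood at 54.9 FPKM in NPC and 108 in NCSC, against 56.4 and 53.2 in hESC, and rose in NCSC. ID2 stood at 65.3 FPKM in NPC and 16.0 in NCSC, against 18.7 and 17.6 in hESC, and rose in NPC. ID4 stood at 15.8 FPKM in NPC and 2.13 in NCSC and the ligand BMP2 at 5.51 in NPC and 0.442 in NCSC, both higher in NPC. The lower genes, FST, CHRD (2.39 FPKM in NPC and 13.2 in NCSC) and GREM1 (0.265 in NPC and 4.30 in NCSC), are secreted antagonists of BMP or activin, and all 3 rose in NCSC. NODAL and activin targets had a median of -0.12, with 2 of 15 lower, FOXH1 among them (0.106 FPKM in NPC and 8.40 in NCSC, against 56.1 and 52.9 in hESC). SB431542 was added to both cultures. Of the 15, 8 fell in NPC and 5 in NCSC by the authors' deposited table, beside 25.8% and 20.5% of all genes tested.

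Of 20 measured retinoic acid genes 2 were higher and 4 lower in NPC, beside 1.27% and 1.76% of all genes. CRABP1, which binds retinoic acid in the cytoplasm, rose in both, to 385 FPKM in NPC and 2670.5 in NCSC, against 112 and 105 in hESC. CRABP2 stood at 107 FPKM in NPC and 546 in NCSC, against 148 and 139 in hESC, and the retinol importer STRA6 at 3.11 in NPC and 42.4 in NCSC, against 4.01 and 3.56 in hESC. CRABP2 and STRA6 rose in NCSC. The nuclear receptors NR2F1 (15.1 FPKM in NPC and 0.314 in NCSC) and NR2F2 (37.1 in NPC and 2.42 in NCSC) were higher. NR2F1 did not pass in NPC, and the implied error of NR2F2, 17.4, exceeds the difference of its log2 ratios, 3.82.

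Of 15 measured hedgehog and dorsoventral genes 4 were higher and 2 lower in NPC. The minimum of 1 FPKM was passed by 1 of the 15 only through NPC and by 3 only through NCSC, OLIG3 among them. For these the filter fixed which derivative stood higher. OLIG3, of the dorsal hindbrain and spinal cord, stood at 0.0298 FPKM in NPC and 19.9 in NCSC, against 0.342 and 0.322 in hESC, and rose in NCSC. NKX6-1, a ventral neural tube factor, stood at 0.748 FPKM in NPC and 16.3 in NCSC and passed in neither table. DMRTA1 (26.4 FPKM in NPC and 1.31 in NCSC), GAS1 (35.7 in NPC and 5.75 in NCSC), GLI3 (29.4 in NPC and 6.75 in NCSC) and DBX1 (4.19 in NPC and a listed 0 in NCSC) were higher. GLI3's implied error, 4.89, exceeds the difference of its log2 ratios, 2.51. Of 20 NOTCH pathway genes HES5 and LFNG were higher and none was lower. DLK1, a NOTCH ligand homolog, rose in both, to 1485 FPKM in NPC and 545 in NCSC, against 2.40 and 2.27 in hESC.

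**Figure D4:**
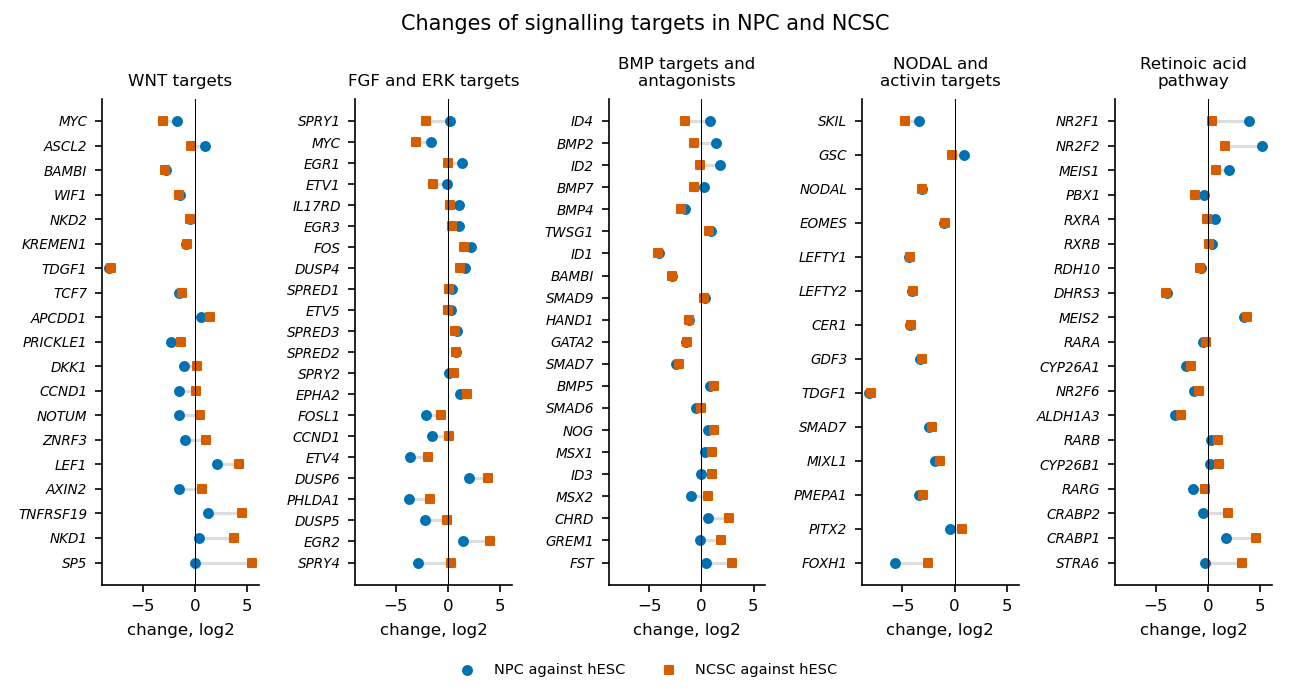
Change against hESC (x axis, log2 units) of measured members of 5 signalling lists in NPC (blue circles) and NCSC (orange squares), 1 pooled value each, ordered by their difference. SP5, NKD1 and TNFRSF19 lie far to the right in NCSC, while ID1, NODAL and LEFTY1 lie at nearly the same place in both.

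Of 22 measured mesenchymal genes 1 was higher and 3 lower, with a median of -0.81. By the authors' deposited table, 10 rose and 4 fell in NPC, beside 12.3% and 25.8% of all genes tested. In NCSC 15 rose and 3 fell, beside 10.4% and 20.5%. COL1A1, a fibrillar collagen chain, stood at 5.54 FPKM in NPC and 329 in NCSC, against 96.9 and 89.8 in hESC, and fell in NPC and rose in NCSC. COL1A2 stood at 29.6 FPKM in NPC and 413 in NCSC, against 24.7 and 22.9 in hESC, and S100A4 at 14.1 in NPC and 76.3 in NCSC, against 16.0 and 14.95 in hESC. CDH11, a cadherin, was higher, at 40.5 FPKM in NPC and 5.26 in NCSC, against 2.38 and 2.30 in hESC, and CDH2, N-cadherin, stood at 127 in NPC and 39.0 in NCSC, both rising in both. Of 31 measured cadherin and epithelial junction genes EPCAM (1.58 FPKM in NPC and 19.1 in NCSC, against 160 and 149 in hESC) and CLDN4 (2.11 in NPC and 11.0 in NCSC, against 10.6 and 9.91 in hESC) were lower. EPCAM fell in both. Among 31 axon guidance genes SLIT2 (0.272 FPKM in NPC and 20.2 in NCSC), SEMA3C (0.209 in NPC and 5.44 in NCSC) and EPHB3 (2.81 in NPC and 16.0 in NCSC) were lower and none was higher.

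Of 28 measured pluripotency genes, 21 fell in each table, beside 25.8% of all genes tested in NPC and 20.5% in NCSC. Their median difference was -0.05, with 2 lower in NPC and none higher. PODXL, a surface sialomucin, stood at 10.3 FPKM in NPC and 156 in NCSC, against 424 and 397 in hESC. POU5F1, the gene of OCT4, stood at 0.645 FPKM in NPC and 17.1 in NCSC, against 235 and 221 in hESC, with an implied error of 2.82 beside a difference of log2 ratios of -4.82, and near-identical copies elsewhere, so its level is uncertain. Of 27 measured cell cycle genes 1 was past 2, CDKN1A, the p21 inhibitor, at 5.92 FPKM in NPC and 89.4 in NCSC, against 34.6 and 33.0 in hESC; it fell in NPC and rose in NCSC. Of 25 measured hypoxia and glycolysis genes 4 were lower in NPC and none higher, with a median of -1.001. NDRG1, a stress-responsive gene, stood at 3.38 FPKM in NPC and 81.8 in NCSC, ADM at 2.85 in NPC and 26.3 in NCSC, ALDOC at 12.98 in NPC and 56.3 in NCSC, and SLC2A3, a glucose transporter, at 157 in NPC and 614 in NCSC. Of the 25, 9 rose and 4 fell in NPC by the authors' deposited table, beside 12.3% and 25.8% of all genes tested. In NCSC 15 rose and 1 fell, beside 10.4% and 20.5%. Of 23 measured imprinted and IGF genes IGFBP3 (32.3 FPKM in NPC and 0.234 in NCSC, against 4.21 and 3.98 in hESC) and NNAT (818 in NPC and 167 in NCSC, against 52.6 and 50.4 in hESC) were higher, and IGFBP7 and IGFBP6 lower.

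Markers of other cell types were summed over the measured members of each list. Of 28 mesoderm genes 7 were measured and none was past 2, and their summed level was 3.57 FPKM in NPC and 5.75 in NCSC, against 13.9 in hESC. Endothelial and blood genes summed to 4.89 FPKM in NPC and 5.15 in NCSC (5 of 18 measured), against 22.7 in hESC. Of 11 measured placode and non-neural ectoderm genes EPCAM and FOXI3 were lower in NPC, and the sum was 21.0 FPKM in NPC and 39.3 in NCSC, against 194 in hESC. Of 11 measured endoderm genes CDX2 was lower, and the sum was 85.5 FPKM in NPC and 123 in NCSC, against 154 in hESC. KRT19, an epithelial keratin, made up 62.8 FPKM of that sum in NPC and 101 in NCSC, and SOX17, a defining endoderm factor, was listed at 0 in both. Of 6 measured trophoblast and amnion genes IGFBP3 was higher and TFAP2C lower, and the sum was 32.9 FPKM in NPC and 4.85 in NCSC, against 29.3 in hESC. IGFBP3 gave 32.3 FPKM of it in NPC and 0.234 in NCSC. The part of other cells in the differences above was not tested.

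The 20 widest differences in each direction were also listed among genes with the authors' q below 0.05 in at least 1 table, at 10 FPKM or more in NPC or NCSC, with hESC values within 0.5 and without small RNAs. That rule was set after the values were seen. Genes outside the lists that stood higher in NPC included CAPN6 (95.6 FPKM in NPC and 0.537 in NCSC), PAMR1 (96.8 in NPC and 2.80 in NCSC), SHISA2, which restrains FGF and WNT receptors in the frog (47.7 in NPC and 0.0669 in NCSC), ME3 (47.6 in NPC and 2.04 in NCSC), ZNF385B (22.3 in NPC and 0.0277 in NCSC), LMO3 (14.7 in NPC and 0.0189 in NCSC) and ZFHX4 (14.1 in NPC and 0.193 in NCSC). Genes that stood lower in NPC included SPP1, osteopontin, at 0.799 FPKM in NPC and 192 in NCSC, against 346 and 321 in hESC. S100A10 stood at 0.858 FPKM in NPC and 89.9 in NCSC, against 102 and 96.6 in hESC, and the tetraspanin CD9 at 1.03 in NPC and 63.1 in NCSC, against 172 and 161 in hESC. These 3 were high in hESC, in NCSC and in the other derivatives of the series, and low in NPC. Others were lower in hESC than in NCSC. VGF, a neuropeptide precursor, stood at 0.617 FPKM in NPC and 89.8 in NCSC, against 5.01 and 5.59 in hESC. The apelin receptor APLNR stood at 1.04 in NPC and 61.5 in NCSC, against 0.901 and 0.841 in hESC. NEFM, a neurofilament, stood at 0.955 in NPC and 57.7 in NCSC, against 11.3 and 10.6 in hESC. GDF15 stood at 1.18 FPKM in NPC and 53.4 in NCSC, against 7.24 and 6.84 in hESC. NEFM and GDF15 fell in NPC and rose in NCSC.

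The other derivatives of the series, endoderm (DE) and splanchnic mesoderm (MESO), were set beside these genes from their own tables. They were not matched to NPC and NCSC in time or density, with 4 days of culture from 50000 cells per square centimetre. Both had FGF (8 ng/mL) and Wnt3a (25 ng/mL). Activin A was at 100 ng/mL for DE and 10 ng/mL for MESO, and IGF-I and heregulin were given to MESO and not to DE. Of 174 genes higher in NPC with a value in all 4 tables, 128 (73.6%) had their highest derivative level in NPC, beside 23.9% of all 13580 genes, and of 237 lower ones 140 (59.1%) had it in NCSC, beside 17.5%. The choice of these genes as high in 1 derivative sets part of both shares. Levels in this paragraph are compared directly across tables, not as changes against hESC, and a common scale of the tables is not given. OTX2 was not particular to NPC, at 153 FPKM in NPC and 0.0376 in NCSC, beside 177 in DE and 1.25 in MESO, and FGF8 stood at 30.6 in DE. COL1A1 was higher in MESO (549 FPKM) than in NCSC (329), and so was APLNR (143 in MESO and 61.5 in NCSC). FZD5 was higher in DE (260 FPKM) than in NPC (71.5), and IGFBP3 higher in MESO (620) than in NPC (32.3). SPP1 stood at 173 FPKM in DE and 251 in MESO, S100A10 at 265 in DE and 543 in MESO, and CD9 at 127 in DE and 149 in MESO. HOXB9 stood at 21.5 FPKM in NCSC and 14.8 in MESO, and HOXB1 at 26.9 in NCSC and 3.54 in MESO, while SIX3 and RAX were below 1 FPKM in NCSC, DE and MESO. OLIG3 was listed at 0 in DE and MESO.

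**Figure D5:**
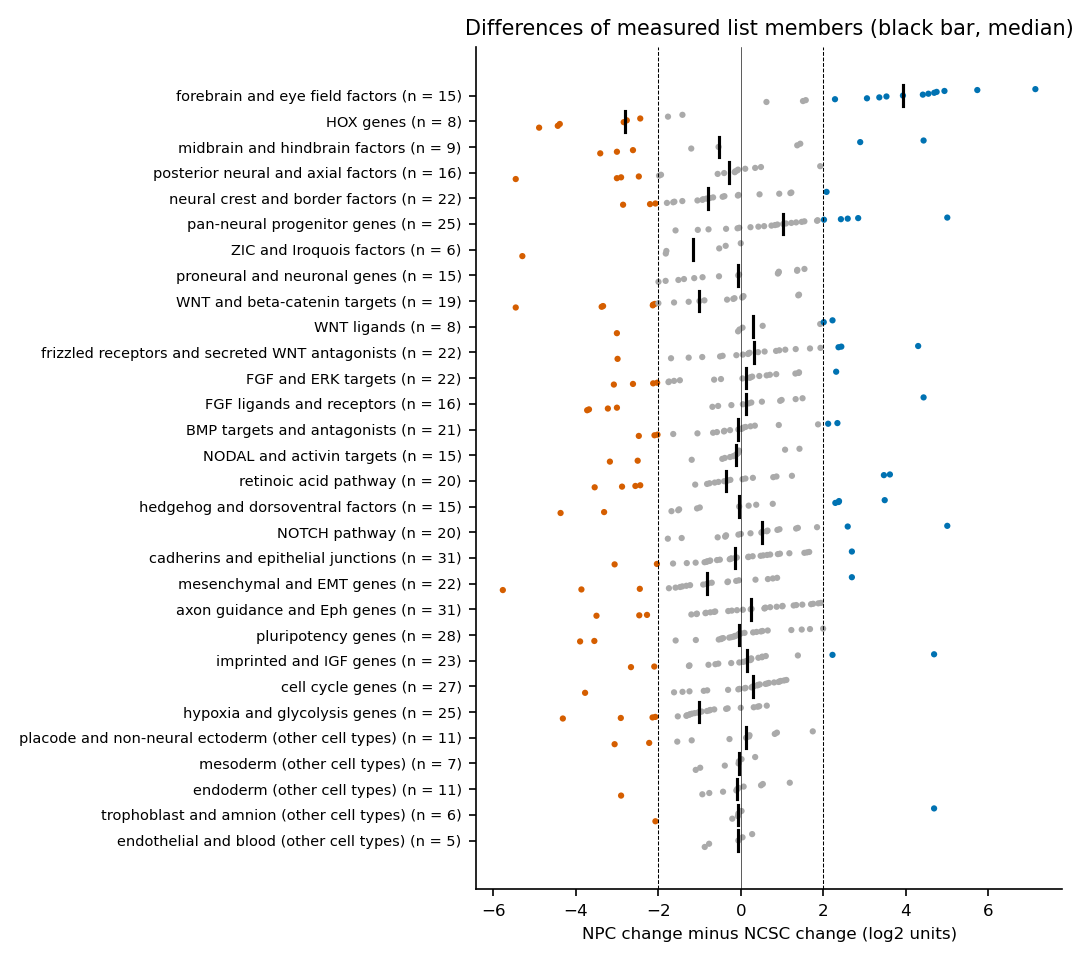
Differences between the NPC and NCSC changes (x axis, log2 units) of the measured members of 30 gene lists, 1 point per gene, blue at 2 or more and orange at -2 or less, with a black bar at each list's median. Under the minimum of 1 FPKM, which all 8 HOX genes and 12 of 15 forebrain genes passed through 1 derivative only, the forebrain median is 3.93 and the HOX median -2.80, against 1.93 and -0.14 with no minimum.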

How the data were processed

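Poly-A RNA was sequenced from 2 libraries per cell type, per the labels, which do not say whether they came from separate cultures. Cufflinks 2.2.1, TopHat2 2.0.13, featureCounts and Subread 1.5.2 are named, per the submitters' processing notes, with the build hg19 and without their roles; how cell types were scaled is not given in the sources used here. Deposited FPKM values, 1 pooled value per cell type, were supplied in 4 tables by the authors, of which 2 were used. The deposited test statistic is a signed score of each derivative against hESC, and the deposited p-value and q-value are the authors', per the file headers. Loci with a statistic of 0 and a p-value of 1 were taken as not tested.

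From these, differences of changes of log2(FPKM + 1) were computed in Python 3.11.15 with pandas 2.3.3 and numpy 2.4.6, and tested on simulated data. Tests across libraries could not be run on pooled values. The implied error is the log2 ratio divided by the deposited statistic, combined over both tables; it counts the shared hESC libraries in each. Loci merged under several symbols (458) were kept out of gene lists, and 18 symbols that failed checks of the deposited FPKM against the statistic or its digits were set apart.

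The members, the gene lists and the limits were chosen with earlier results of these data known. Of 689 symbols in 30 lists, each counted once, 457 were measured, 203 were below 1 FPKM, 22 lay in merged loci, 6 were not in both tables and 1 was set apart. Named genes are the 4 markers, the measured members of the forebrain, HOX, posterior and crest lists, of each other list up to 6 past the limit and 3 not past it by level, and the 15 highest and 15 lowest differences at 10 FPKM or more, not all of which are printed. L1TD1, NOTUM, LEFTY1, NODAL and the merged or unmeasured genes were named after their values were seen. SB431542 and BIO doses are not given here. Some members are counted in their lists but not reported here by name.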

Additional observations from a re-analysis of the deposited data

How the results depend on the processing

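Both counts, 175 genes higher and 242 lower in NPC, depended on the pseudocount: they were 360 and 516 with a pseudocount of 0.1 and 69 and 88 with one of 5. Requiring a difference of at least 2 times the implied error left 89 higher and 168 lower; 303 of the 417 genes past the limit have such an error. With a limit of 1 in place of 2, chosen after seeing the data, 730 were higher and 1007 lower, and with a limit of 3, also chosen then, 66 and 95. Under the minimum of 5 FPKM, no minimum, levels without hESC, quantile normalization, centring, merged loci left out, only genes with the authors' q below 0.05, and, chosen after seeing the data, symbols set apart, unequal hESC values or small RNAs left out, the counts ran from 126 to 188 higher and from 188 to 314 lower. Of 123 named or listed genes past the limit, all kept their sign under both pseudocounts, quantile normalization and centring, and 76 were still past it with a pseudocount of 5. The list medians of the forebrain genes (3.93) and HOX genes (-2.80) were 6.61 and -5.68 with a pseudocount of 0.1, 2.37 and -1.14 with one of 5, 4.48 and -4.38 with a minimum of 5 FPKM, and 1.93 and -0.14 with no minimum. Leaving out a library could not be done on pooled values. No paired analysis was possible because the tables hold 1 value per cell type. Depth is unknown, so low levels have no counting error here.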
